A study of Homo sapiens with 6 samples.

Results

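The 32 genes described here encode proteins that remove R-loops or keep them from forming. They were taken by gene symbol from a deposited table of read counts for 60617 Ensembl genes, and all 32 were among the 18505 genes that passed the filter on low counts. The cells were A549, an established line from a human lung adenocarcinoma. The study has 3 wild-type libraries and 3 libraries from A549 cells with a knockout of YTHDF1, which encodes a reader of N6-methyladenosine in mRNA, and no other treatment is named in the labels for either group. The labels call the libraries biological replicates. They do not say which part of YTHDF1 was edited, whether the knockout cells are 1 clone, or whether the replicates were separate cultures, so the p-values weigh the groups only against the spread among these libraries.

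An R-loop forms when a nascent RNA pairs with its DNA template and leaves the other DNA strand unpaired. Cells limit R-loops in several ways. Packaging and export factors such as the THO complex hold the RNA away from the DNA, helicases unwind the hybrid, RNase H cuts its RNA strand, topoisomerases relax the underwound DNA behind the polymerase, and chromatin factors help replication forks and polymerases pass. The series title connects YTHDF1 with R-loop control and with innate immunity, and the comparison asks how the mRNAs of these factors differ between the genotypes. A gene-level count measures neither protein nor R-loops.

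The libraries held between 27238817 and 40675628 counts. Levels are counts per 1000000 counts (CPM) with TMM scaling, given in the order wild-type replicates 1 to 3 and knockout replicates 1 to 3. Means are ± SD over n = 3 libraries. Each log2 fold change is the knockout level less the wild-type level, with its standard error (SE) from the fit. Adjusted p-values come from the quasi-likelihood test of edgeR, adjusted over all genes tested by the method of Benjamini and Hochberg, and the threshold was 0.05. YTHDF1 itself was 98.0, 104 and 96.4 CPM in wild type and 48.6, 48.6 and 47.1 CPM in the knockout, so the RNA was lower in each knockout library but still present. The epithelial keratin genes KRT8 and KRT18 averaged 1576 and 489 CPM in wild type, and the epithelial adhesion gene EPCAM was at 2.10 CPM. Of the 7 A549 and epithelial markers, 4 rose and 1 fell: the E-cadherin gene CDH1 rose by 1.76 on the log2 scale, KRT19 by 0.52, AKR1C1 by 0.40 and KRT8 by 0.19, and AKR1B10 fell by 1.06. Of 12 marker genes of leukocytes, endothelium and fibroblasts, 9 stayed under 1 CPM in all 6 libraries, and the T cell gene CD3E was at 0. The other 3 were called: PDGFRB fell by 3.47 from 1.34 to 0.124 CPM, LUM rose by 0.72 and ITGAM rose by 0.54. PDGFRB was at only 0.248, 0 and 0.123 CPM in the knockout libraries and passed the filter on low counts through its wild-type libraries. The size of its fall is therefore uncertain. The summed levels of the leukocyte, endothelial and fibroblast markers were 3.10 to 4.27, 0.225 to 0.816 and 2.74 to 2.75 CPM in wild type and 4.27 to 5.12, 0.196 to 0.464 and 2.32 to 2.89 CPM in the knockout.

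Of the 32 genes, 13 fell and 6 rose in the knockout libraries, and 13 did not pass the threshold. Over all 18505 genes, 53.5% passed the threshold, 27.2% higher and 26.3% lower. The share of the 32 genes called, 59.4%, was thus near that of all genes, with 40.6% lower and 18.8% higher. Their median log2 fold change was -0.10, beside 0.00 for all genes tested. For 21 of the 32 genes the levels of the groups did not overlap, beside 58.9% of all genes tested. Most changes were small. Of the called genes, 5 had a log2 fold change of at least 0.5 in size, beside 28.4% of all genes tested, and all 5 fell: PIF1, DDX39A, SSRP1, THOC6 and DHX9. Added together, the 32 genes took 0.390% to 0.397% of raw counts in wild type and 0.391% to 0.396% in the knockout. These shares overlapped between the groups, while single genes moved in both directions. With TMM scaling their summed level was 3929 to 4017 CPM in wild type and 3878 to 3925 CPM in the knockout. The groups were then close but did not overlap. In these bulk samples, fewer cells with an mRNA and less of it per cell cannot be told apart.

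**Figure D1:**
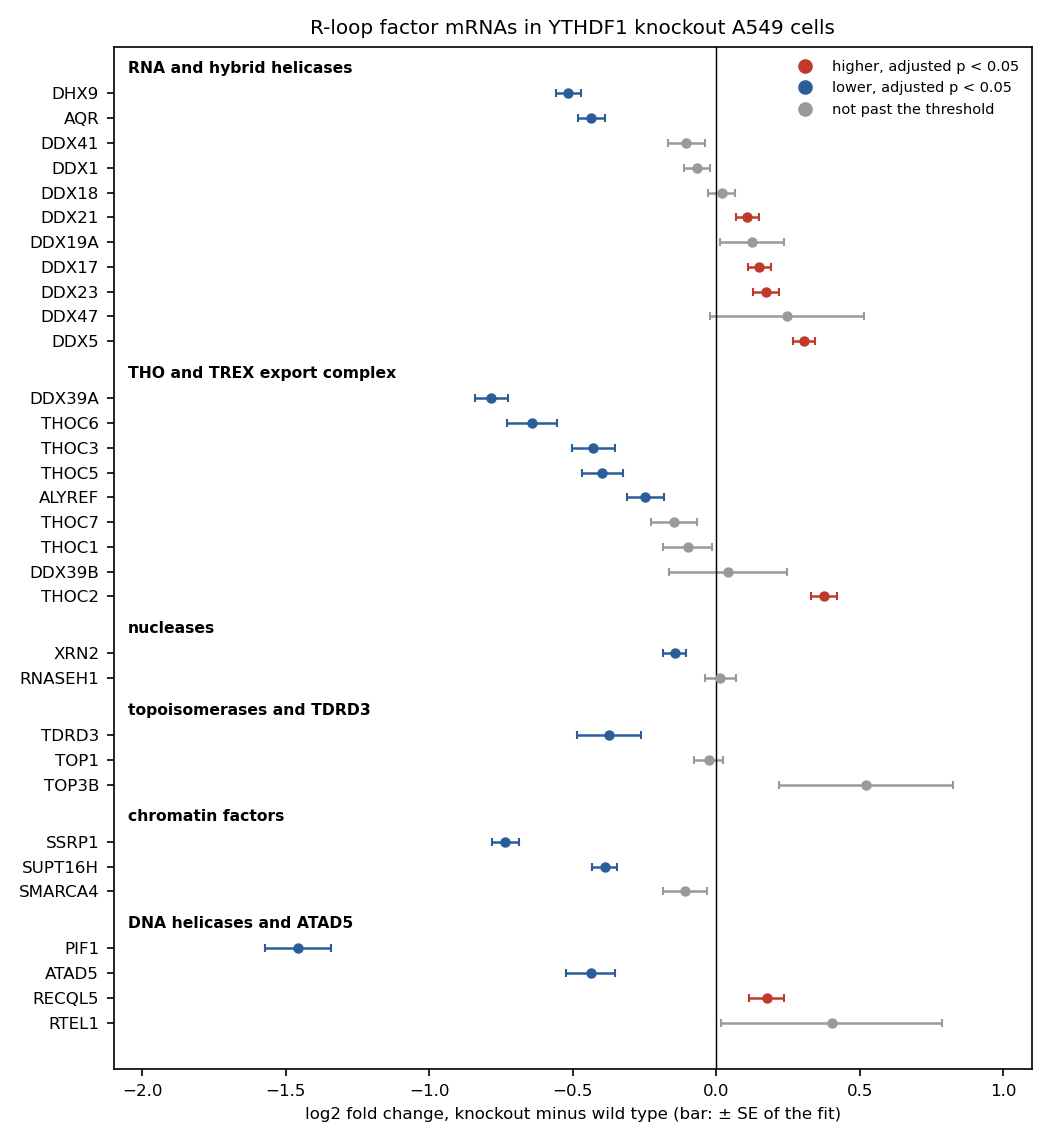
Log2 fold change (x axis, knockout minus wild type, bars ± SE of the fit) of each of the 32 genes (y axis), grouped by role; colours mark genes higher, lower or not past an adjusted p of 0.05. PIF1 lies farthest to the left at -1.46, and THOC2, at 0.37, lies farthest to the right of the 6 genes that rose.

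Proliferation markers and mitochondrial mRNAs moved between the same groups as these genes. All 15 proliferation markers on the list fell, with a median of -0.96 on the log2 scale. The replication clamp gene PCNA, which was not on it, rose by 0.89. The summed level of the 15 markers was 1952 to 2058 CPM in the wild-type libraries and 865 to 966 CPM in the knockout libraries. The topoisomerase gene TOP2A, the proliferation antigen gene MKI67 and the survivin gene BIRC5 had the smallest adjusted p among them and fell by 1.42, fell by 1.39 and fell by 1.27 on the log2 scale. All 13 mitochondrially encoded mRNAs also fell, with a median of -0.55, and took 5.76% to 5.92% of counts in wild type and 3.72% to 3.98% in the knockout. MT-CO3, MT-ATP6 and MT-ATP8, the first a cytochrome oxidase subunit gene and the others ATP synthase subunit genes, fell by 1.45, fell by 1.29 and fell by 1.35. Their part in the falls described below was not tested.

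Promoter sequences are shown for the 3 genes with the largest falls, PIF1, DDX39A and SSRP1, and for THOC2, the largest rise past the threshold. They are RefSeq windows on GRCh38.p14, from 250 bases before the start site to 50 after it, read 5′ to 3′ on the strand of the gene. Those of PIF1 (chr15:64825598-64825897), DDX39A (chr19:14419334-14419633), SSRP1 (chr11:57335843-57336142) and THOC2 (chrX:123733003-123733302) all lie on the minus strand. Capitals mark matches on either strand to 4 motifs that are often named in promoters of genes of cell division or of interferon response: CCAAT, the cell cycle homology region (TTTGAA or TTCGAA), the E2F site (TTTCCCGC, TTTCGCGC, TTTGCCGC or TTTGGCGC) and the interferon-stimulated response element (GAAA and GAAA, 2 bases apart).
PIF1: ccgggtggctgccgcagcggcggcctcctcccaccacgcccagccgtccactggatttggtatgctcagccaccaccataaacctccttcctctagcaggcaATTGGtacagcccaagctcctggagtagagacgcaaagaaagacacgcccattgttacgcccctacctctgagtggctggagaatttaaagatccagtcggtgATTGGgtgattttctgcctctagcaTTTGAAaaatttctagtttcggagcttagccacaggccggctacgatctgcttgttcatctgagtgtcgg
DDX39A: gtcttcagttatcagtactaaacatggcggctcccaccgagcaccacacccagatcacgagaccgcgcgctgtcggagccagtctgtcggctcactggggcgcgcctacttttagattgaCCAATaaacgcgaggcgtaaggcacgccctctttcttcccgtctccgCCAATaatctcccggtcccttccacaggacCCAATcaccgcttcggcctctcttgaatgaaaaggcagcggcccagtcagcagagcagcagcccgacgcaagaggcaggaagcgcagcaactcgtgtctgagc
SSRP1: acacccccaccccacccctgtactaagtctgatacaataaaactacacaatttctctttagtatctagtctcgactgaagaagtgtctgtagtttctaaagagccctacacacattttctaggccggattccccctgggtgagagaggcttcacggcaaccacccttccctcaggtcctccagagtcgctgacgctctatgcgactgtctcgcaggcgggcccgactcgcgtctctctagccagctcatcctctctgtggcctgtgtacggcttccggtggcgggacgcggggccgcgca
THOC2: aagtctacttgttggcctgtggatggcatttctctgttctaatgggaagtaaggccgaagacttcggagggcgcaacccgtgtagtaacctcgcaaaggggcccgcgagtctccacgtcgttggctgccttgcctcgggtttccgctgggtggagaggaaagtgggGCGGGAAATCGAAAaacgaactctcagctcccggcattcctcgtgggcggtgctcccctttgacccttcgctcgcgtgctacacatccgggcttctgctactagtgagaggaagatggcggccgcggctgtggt

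The PIF1 window holds 2 CCAAT matches and a TTTGAA that begins 20 bases before the start site. The DDX39A window holds 3 CCAAT matches, beginning 130, 83 and 53 bases before the start. SSRP1 has none of the 4 motifs in its window. In THOC2 an E2F match and a GAAATCGAAA overlap by 4 bases, and they begin 84 and 80 bases before the start. Promoter windows were found for 29 of the 32 genes. CCAAT was in 7 of 12 windows of genes that fell, 2 of 6 of genes that rose and 1 of 11 of the others, beside 34.6% of all 35116 windows. The cell cycle homology letters were in 2 of the 29 windows, beside 16.4% of all. The E2F letters were in 1 of 29 beside 3.31%, and the interferon response letters were in 1 of 29 beside 3.57%. The 35116 windows were not limited to genes that passed the filter on low counts, as the 29 were. These are matches of letters and do not show that a factor bound.

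The 29 windows, 1 per gene, were rich in CpG. Their median ratio of observed to expected CpG was 0.931, beside 0.579 for all windows, and their median GC content was 61.3%, beside 58.7%. Because all windows include those of genes outside the filter, the difference need not be particular to these genes. R-loops are known to form at CpG-rich promoters where the RNA strand carries more G than C. The median GC skew, which is G minus C over their sum on the strand of the gene, was -0.14 in the 12 windows of genes that fell, -0.01 in the 6 of genes that rose and 0.01 in the 11 others. It was 0.01 over all windows. Of each window, 250 bases lie before the start site and only 50 after it, so this skew is mostly not that of the RNA. The windows of the 29 genes are thus described by base composition only, and no R-loop was measured in them.

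Among the 11 RNA helicases, 2 fell, 4 rose and 5 did not pass the threshold. The share called, 54.5%, was near the 53.5% of all genes tested. DHX9, also called RNA helicase A, unwinds RNA-DNA hybrids and is encoded at chr1:182839369-182887751. Its level was 279.8, 295 and 290.1 CPM in wild type and 205, 197 and 202 CPM in the knockout. All 3 knockout libraries lay below all wild-type libraries, and DHX9 fell by 0.52 on the log2 scale (SE 0.0420, adjusted p = 2.05e-12). AQR, the intron-binding helicase of the spliceosome whose loss is known to raise R-loops, fell by 0.44 (SE 0.0480, adjusted p = 2.07e-09) from 134 ± 6.82 to 99.1 ± 1.96 CPM.

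The paralogs DDX5 and DDX17, RNA helicases that act in transcription and splicing, both rose. DDX5 was 723, 737 and 734 CPM in wild type and 914, 919.7 and 877 CPM in the knockout, and rose by 0.31 (SE 0.0378, adjusted p = 2.26e-08). DDX17 was 525, 529.6 and 529 CPM in wild type and 559, 595 and 602 CPM in the knockout, and rose by 0.15 (SE 0.0397, adjusted p = 0.00179). The groups did not overlap for either gene, and knockout replicate 1 was the lowest of its group for DDX17 but not for DDX5. DDX23, a helicase of the U5 snRNP, rose by 0.17 (adjusted p = 0.00146) from 142 ± 2.62 to 160.0 ± 6.21 CPM. DDX21, a nucleolar helicase, rose by 0.11 (adjusted p = 0.0247) from 313 ± 4.19 to 337 ± 7.26 CPM, and this smallest of the calls was lost when wild-type replicate 1, wild-type replicate 3 or knockout replicate 1 was left out, with adjusted p = 0.0519, 0.0827 and 0.0644.

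The other 5 RNA helicases did not pass the threshold. DDX1, known to bind R-loops and poly(A) RNA, was at 185 ± 8.13 and 176 ± 6.02 CPM, with a log2 fold change of -0.07 and a 95% interval (from the SE) of -0.16 to 0.02. DDX18, a ribosome biogenesis helicase, had an interval of -0.07 to 0.11, and DDX41, a helicase gene mutated in inherited myeloid neoplasms, one of -0.23 to 0.02. DDX41 passed the threshold as lower without wild-type replicate 2 (adjusted p = 0.0134), since that library, at 49.3 CPM, was below the other two at 60.1 and 58.6 CPM. DDX19A, an mRNA export helicase of the nuclear pore, was 10.3, 14.7 and 12.96 CPM in wild type and 14.6, 13.8 and 12.7 CPM in the knockout, and its paralog DDX19B was 9.84, 11.7 and 8.47 CPM in wild type and 10.5, 10.1 and 10.6 CPM in the knockout. Both paralogs overlapped between the groups, and 23.8% of the exonic bases of DDX19A are shared with another gene on the same strand, so its level is uncertain. DDX47, another ribosome biogenesis helicase, was at only 1.58 ± 0.261 and 1.86 ± 0.228 CPM.

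The THO complex binds nascent mRNA, and with the adaptor ALYREF and the helicases DDX39A and DDX39B it makes up the transcription-export complex TREX. Of these 9 genes, 5 fell (55.6%, beside 26.3% of all genes), 1 rose (11.1%, beside 27.2%) and 3 did not pass the threshold. Their median change was -0.25 on the log2 scale. DDX39A, encoded at chr19:14408819-14419383, was 74.1, 76.3 and 74.0 CPM in wild type and 40.4, 45.8 and 43.9 CPM in the knockout. The gap between the groups was far wider than the spread within them, and DDX39A fell by 0.78 (SE 0.0574, adjusted p = 1.47e-13). Its paralog DDX39B was 2.77, 2.41 and 2.77 CPM in wild type and 2.79, 2.65 and 2.78 CPM in the knockout, with a log2 fold change of 0.04 and a 95% interval of -0.36 to 0.44.

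Of the 6 THO subunits measured, 3 fell, 1 rose and 2 did not pass the threshold, while 26.3% of all genes fell and 27.2% rose. THOC6, at chr16:3024027-3027755, was 23.9, 24.8 and 23.4 CPM in wild type and 16.5, 16.1 and 13.6 CPM in the knockout, and fell by 0.64 (SE 0.0875, adjusted p = 1.50e-07). The groups did not overlap, and knockout replicate 3 was the lowest library. In GENCODE 29, 18.0% of the exonic bases of THOC6 overlap genes on the opposite strand. HCFC1R1, which overlaps its start, fell by 0.63, and the sources used here do not give the strand setting of the counting, so the THOC6 level is uncertain. THOC3 fell by 0.43 (adjusted p = 1.17e-05) from 29.8 ± 0.704 to 22.2 ± 1.40 CPM, and THOC5 fell by 0.40 (adjusted p = 1.50e-05) from 37.3 ± 1.99 to 28.4 ± 1.92 CPM. THOC1 and THOC7 did not pass the threshold, with log2 fold changes of -0.10 and -0.15 and 95% intervals of -0.27 to 0.07 and -0.30 to 0.01.

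THOC2, the large scaffold subunit of THO, went the other way. It was chosen for values in every library after its values were seen. THOC2, at chrX:123600561-123733056, was 138, 136 and 145 CPM in wild type and 182, 178 and 183 CPM in the knockout. Every knockout library lay above every wild-type library, and THOC2 rose by 0.37 (SE 0.0444, adjusted p = 9.63e-09). ALYREF, which hands mRNA to the export receptor, fell by 0.25 (SE 0.0641, adjusted p = 0.00140) from 62.3 ± 5.28 to 52.4 ± 4.08 CPM. Per kilobase of exon in GENCODE 29, the wild-type levels of THOC1, THOC2, THOC3, THOC5, THOC6 and THOC7 were 3.12, 13.6, 8.63, 4.74, 12.9 and 16.8 CPM. In the knockout they were 2.90, 17.6, 6.42, 3.60, 8.28 and 15.1 CPM per kilobase. By this measure the mean of THOC2 was second to THOC7 in wild type and the highest of the 6 in the knockout. The length used merges all annotated exons of a gene, 1784 bases for THOC7 and 10277 for THOC2. The order therefore depends on the annotation and need not be that of the mRNAs.

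**Figure D2:**
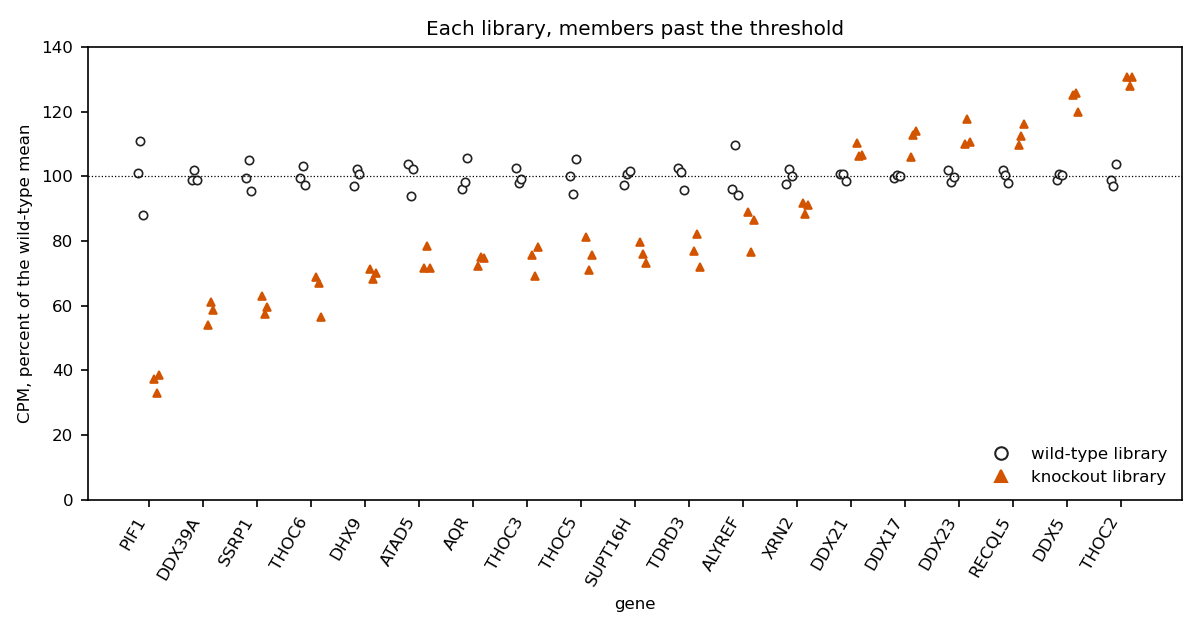
CPM in each library as a percentage of the wild-type mean of the gene (y axis) for the 19 genes past the threshold (x axis, ordered by fold change); circles are wild-type and triangles knockout libraries. No gene shown has overlapping groups, and the PIF1 triangles are the lowest.

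The 2 nucleases differed little between the groups. RNASEH1 encodes the enzyme that cuts the RNA strand of RNA-DNA hybrids in the nucleus and in mitochondria. It was at 67.3 ± 1.84 CPM in wild type and 67.9 ± 3.36 CPM in the knockout, and the 95% interval of its log2 fold change was -0.09 to 0.12. XRN2, the exonuclease that degrades RNA downstream of the poly(A) site and helps end transcription, was 248, 260.0 and 254 CPM in wild type and 233, 224 and 231 CPM in the knockout. The groups were close but did not overlap, and XRN2 fell by 0.15 (SE 0.0417, adjusted p = 0.00354).

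TOP1, the main topoisomerase that relaxes DNA during transcription, did not pass the threshold, with 145 ± 0.888 and 142 ± 10.8 CPM and a 95% interval of -0.12 to 0.07. TOP3B acts on RNA and on underwound DNA and is held in place by the Tudor protein TDRD3. TDRD3 was 11.5, 11.4 and 10.7 CPM in wild type and 8.61, 9.22 and 8.06 CPM in the knockout, without overlap, and fell by 0.38 (SE 0.112, adjusted p = 0.00492). TOP3B was 1.29, 0.891 and 0.974 CPM in wild type and 1.55, 1.54 and 1.47 CPM in the knockout. The knockout libraries were all higher, but TOP3B did not pass the threshold (log2 fold change 0.52, SE 0.304, adjusted p = 0.153), and 90.7% of its exonic bases overlap PPM1F-AS1 on the opposite strand, which was at 7.24 CPM in wild type.

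Both subunits of FACT, a histone chaperone that opens and rebuilds nucleosomes ahead of polymerases, fell. SSRP1, at chr11:57325985-57335877, was 223, 235 and 214 CPM in wild type and 141, 129 and 134 CPM in the knockout. It had the smallest adjusted p of the 32 genes and fell by 0.73 (SE 0.0469, adjusted p = 4.56e-15). SUPT16H, the other subunit, was 234, 241 and 244 CPM in wild type and 191, 182 and 175 CPM in the knockout, and fell by 0.39 (SE 0.0439, adjusted p = 3.29e-09). In wild type the levels of SSRP1 and SUPT16H per kilobase of merged annotated exons were 35.5 ± 1.67 and 33.5 ± 0.759 CPM. In the knockout they were 21.3 and 25.6 CPM. SMARCA4, the ATPase of the BAF chromatin remodelling complex, was 25.5, 25.9 and 28.0 CPM in wild type and 26.4, 23.4 and 24.0 CPM in the knockout, with overlapping groups and a 95% interval of -0.26 to 0.04. A549 cells are known to carry an inactivating SMARCA4 mutation, so this mRNA need not give working protein in either group.

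PIF1, a DNA helicase that unwinds G-quadruplexes and RNA-DNA hybrids, had the largest change of the 32 genes. The gene lies at chr15:64815632-64825668, and its level was 16.5, 18.1 and 14.4 CPM in wild type and 6.10, 5.42 and 6.31 CPM in the knockout. The highest knockout library was below the lowest wild-type library, and PIF1 fell by 1.46 (SE 0.116, adjusted p = 1.09e-12). ATAD5, which unloads the PCNA clamp from DNA after replication, fell by 0.44 (SE 0.0841, adjusted p = 4.08e-05) from 22.6 ± 1.2 to 16.7 ± 0.891 CPM. RECQL5, a helicase that binds RNA polymerase II, rose by 0.18 (SE 0.0604, adjusted p = 0.0144) from 41.7 ± 0.835 to 47.1 ± 1.37 CPM. Its call was lost without wild-type replicate 3 and without knockout replicate 3, with adjusted p = 0.0566 and 0.0603. In RECQL5, 18.2% of exonic bases overlap genes on the opposite strand, among them SAP30BP, which rose by 0.83.

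RTEL1, a helicase that protects telomeres, lies on chromosome 20, 441576 bases from YTHDF1. It was at 0.811 ± 0.321 CPM in wild type and 1.05 ± 0.307 CPM in the knockout and did not pass the threshold (adjusted p = 0.406). Of its exonic bases 70.2% are shared with the readthrough gene RTEL1-TNFRSF6B, which was counted at 2.57 CPM in wild type and rose by 0.54 (adjusted p = 0.0221). DDX39B and DDX47 also share exonic bases with another gene on the same strand, 30.8% with genes that include ATP6V1G2-DDX39B and 36.5% with APOLD1. ATP6V1G2-DDX39B had 0 counts in all 6 libraries and APOLD1 was at 1.01 CPM in wild type. With TOP3B, these were the only members under 3 CPM. The sources used here do not say how reads that fall on 2 genes were treated, so these 4 low levels need not be the levels of the mRNAs.

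Per kilobase of merged annotated exons, DDX5 had the highest level of the 32 genes in wild type at 99.0 ± 1.02 CPM. XRN2 followed at 73.9 ± 1.75 and DDX21 at 62.3 ± 0.834 CPM, and this order too depends on the annotation. DDX17 at 52.8 ± 0.252 and DHX9 at 51.1 ± 1.38 CPM were next, with each wild-type library of DHX9 below those of DDX17. TDRD3, DDX19A and SMARCA4 were between 1.44 and 1.68 CPM per kilobase, and only the 4 genes with large exon overlap were lower. Among the 5 genes that fell most, wild-type levels per kilobase ran from 3.51 CPM for PIF1 to 51.1 CPM for DHX9.

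Related genes were compared within each library, which removes nearly all of any scaling error between libraries. The 0.5 CPM added to each level keeps that error from cancelling fully. A total of 6 pairs were tested with a two-sided exact permutation test on the log2 ratio of CPM + 0.5, where 3 against 3 libraries cannot give a p below 0.1. The ratio of SSRP1 to SUPT16H was lower in all 3 knockout libraries, with a log2 difference of -0.34 (SE 0.0566), and so was that of DDX17 to DDX5, with a difference of -0.16 (SE 0.0482). The ratio of DDX39A to DDX39B differed by -0.82 (SE 0.0986) and that of TOP3B to TDRD3 by 0.75 (SE 0.108), though the overlap named above bears on DDX39B and TOP3B. The ratio of SMARCA4 to its paralog SMARCA2 differed by 0.32 (SE 0.128). SMARCA2 was 76.1, 71.6 and 72.4 CPM in wild type and 50.2, 58.2 and 55.2 CPM in the knockout, and fell by 0.43. For these 5 pairs the groups did not overlap, with exact p = 0.1 and an adjusted p of 0.12 over the 6 pairs, which does not pass the threshold. DDX19A to DDX19B differed by 0.06 (SE 0.164, exact p = 0.8), and the groups overlapped.

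**Figure D3:**
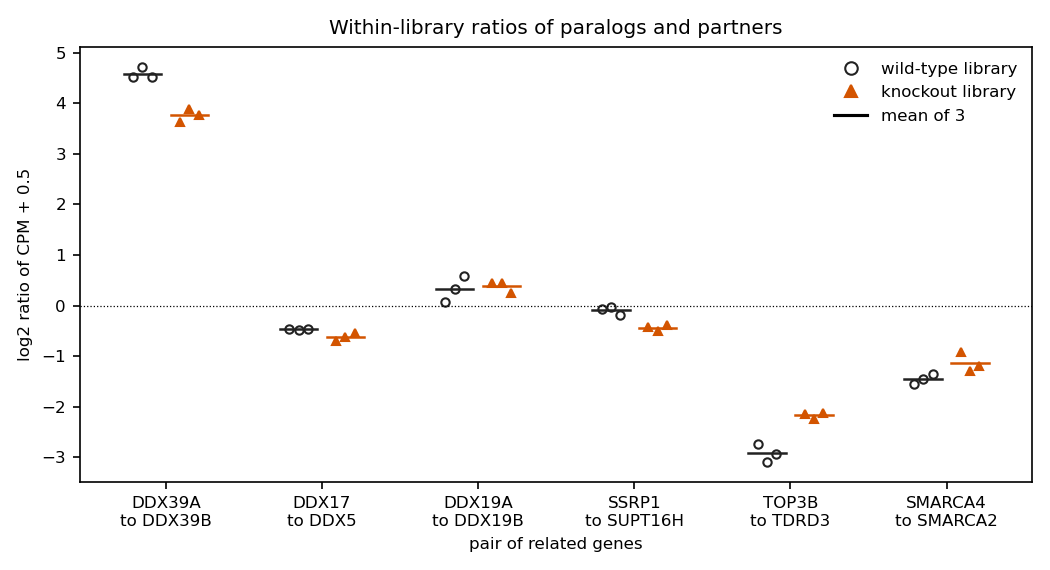
Log2 ratio of CPM + 0.5 (y axis) in each library for 6 pairs of related genes (x axis); circles are wild-type libraries, triangles knockout libraries, and lines the means of 3. The SSRP1 to SUPT16H ratio averages -0.10 in wild type and -0.44 in the knockout, and only the DDX19A to DDX19B groups overlap.

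Other factors of the same pathways were read from lists of partners. Some genes stand in more than 1 list. Of 29 other R-loop factors tested, 16 fell (55.2%, beside 26.3% of all genes) and 5 rose (17.2%, beside 27.2%), with a median of -0.20 on the log2 scale. Among those with the smallest adjusted p were ADAR, which deaminates adenosine in double-stranded RNA and is induced by interferon, and the helicase gene RECQL. ADAR rose by 1.5 from 361 ± 4.43 to 1019 ± 16.3 CPM. RECQL fell by 0.72 from 76.9 ± 3.23 to 46.7 ± 1.47 CPM.

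TREX partners and export factors numbered 15 tested, of which 7 fell and 4 rose (73.3% called, beside 53.5% of all genes). Without wild-type replicate 1, wild-type replicate 3 or knockout replicate 1, the higher calls were 2. NCBP1, the large cap-binding subunit, fell by 0.66, SRRT fell by 0.37, and the export adaptor gene FYTTD1 rose by 0.63. Of 18 spliceosome partners of AQR and DDX23, 6 fell and 5 rose (61.1% called, near the 53.5% of all genes). PRPF8, the core U5 protein, fell by 1.45 from 666 ± 10.8 to 245 ± 2.95 CPM, and the U5 helicase gene SNRNP200 fell by 0.66, while CTNNBL1 rose by 0.78. DDX23, of the same U5 particle, had risen by 0.17.

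Among 15 genes of transcription termination and 3′ end cleavage, the setting of XRN2, 3 fell and 2 rose, a share of 33.3% called beside 53.5% of all genes. Without knockout replicate 1, the higher calls were 4. CPSF3, the cleavage endonuclease, fell by 0.43 and CPSF2 fell by 0.32. All 15 genes listed as BAF partners of SMARCA4, its paralog SMARCA2 among them, were called, beside 53.5% of all genes. Of the 15, 11 were lower (73.3%, beside 26.3% of all genes) and 4 higher (26.7%, beside 27.2%), with a median of -0.27. The 4 higher calls were 2 without wild-type replicate 1 and without knockout replicate 1, and 3 with DESeq2. ARID1A, a DNA-binding subunit, fell by 0.50, ACTL6A fell by 0.66 and SMARCD1 fell by 0.46. The partners of ATAD5 and of TOP3B and TDRD3 were 10 genes, of which 4 fell and 5 rose (90% called, beside 53.5% of all genes). PCNA, the clamp that ATAD5 unloads, rose by 0.89 from 189 ± 2.84 to 349.7 ± 24.8 CPM, FMR1, an RNA-binding partner of TDRD3, rose by 0.87, and the clamp loader subunit gene RFC5 fell by 0.81.

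**Figure D4:**
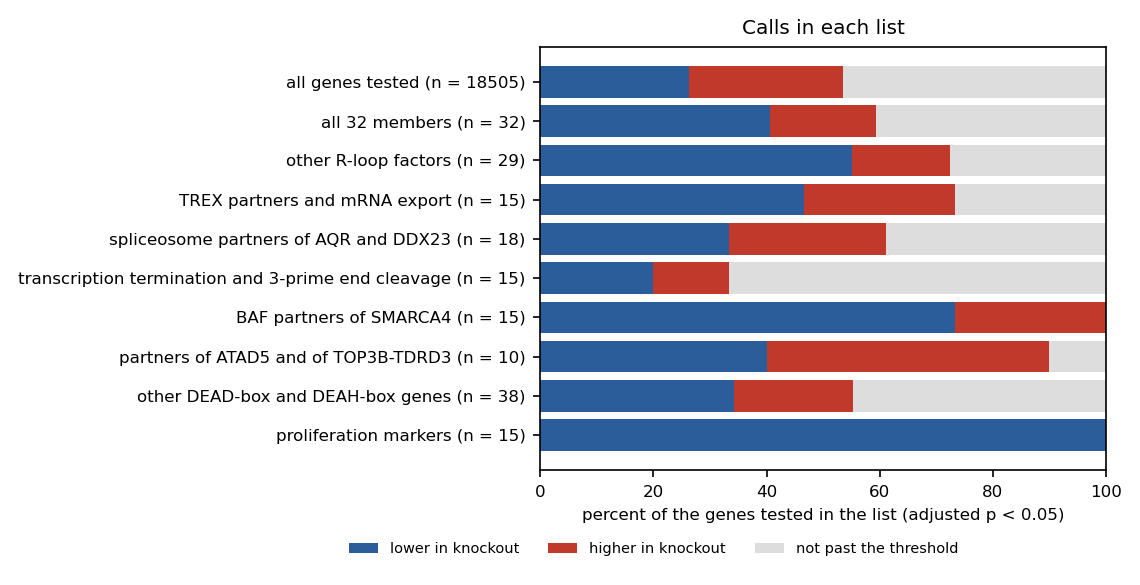
Percent of the tested genes of each list that were lower (blue), higher (red) or not past an adjusted p of 0.05 (grey). The 32 genes, with 40.6% lower and 18.8% higher, stand beside 26.3% and 27.2% of all genes tested.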

How the data were processed

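The authors deposited raw counts per Ensembl gene for 6 libraries, made from total RNA with a stranded TruSeq kit, per the labels' protocols. Per the submitters' processing notes, Trim Galore 0.6.6, STAR 2.7.0d, featureCounts 2.0.1, edgeR 3.32.1 and the build GRCh38 were used; the annotation, the strand setting and the treatment of shared reads were not given in the sources used. Symbols came from a symbol table (42000 identifiers) and GENCODE 29 (16605), which also gave coordinates and exons.

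Counts were fitted with edgeR 4.0.16 in R 4.3.3 (filterByExpr, TMM, genotype as the only term). The common biological coefficient of variation was 0.0617. Pairs of genes were compared on log2 (CPM + 0.5). The fit was tested on simulated counts. Within each group, libraries differed beyond counting error (chi-square over its degrees of freedom 4.40 to 6.55), so none was a second copy of another; this does not show separate cultures.

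Values in every library were given for YTHDF1, called members with a log2 fold change of at least 0.5 in size, both genes of each pair and the member with the smallest adjusted p per role. Up to 3 genes with the smallest adjusted p were named per other list; 1 gene is not reported here. The members and lists were chosen with earlier results of these data known. Alternatives were DESeq2 1.42.0, limma-voom (limma 3.58.1), RLE factors, library size only, other filters, a replicate block, a test against a 1.2-fold change, and leaving out each library.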

Additional observations from a re-analysis of the deposited data

How the results depend on the processing

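The counts of 13 lower and 6 higher genes among the 32 were the same with DESeq2, with limma-voom, when scaling used RLE factors or the library size alone, and with either other filter (none, or 1 CPM in 3 libraries). When each library was left out in turn, 13 to 14 genes were lower and 4 to 6 higher, and over all genes 4436 to 4638 were lower and 4623 to 4872 higher. When the test asked for a change beyond 1.2-fold, 10 of the 32 genes were lower and 1, THOC2, was higher, and over all genes 2817 were lower and 3214 higher. Under this test the lower and higher calls were 7 and 3 among other R-loop factors, 4 and 1 among TREX partners, 2 and 3 among spliceosome partners, and 1 and 1 among termination genes; 5 BAF partners were lower and the 4 higher calls were lost. Of the 19 called genes, 11 kept their call in all 14 alternatives and none changed sign; DDX5, DDX17, DDX23, ALYREF, XRN2 and TDRD3 lost it only under the 1.2-fold test, and DDX21 and RECQL5 also without single libraries. Among the 13 uncalled genes, 1, DDX41, was called in an alternative. Over the libraries left out, the log2 fold change of 5 uncalled genes took both signs: DDX18 from -0.0016 (without knockout replicate 2; -0.00066 without wild-type replicate 2) to 0.044, DDX19A from -0.0083 (without wild-type replicate 1) to 0.23, DDX39B from -0.022 (without wild-type replicate 2) to 0.074, RNASEH1 from -0.024 (without knockout replicate 3; -0.0089 without wild-type replicate 1) to 0.045, and TOP1 from -0.089 to 0.0083 (without knockout replicate 2; 0.0069 without knockout replicate 3). The difference in the DDX19A to DDX19B ratio ranged from -0.069 to 0.19 over the libraries left out. The replicate block gave 13 lower and 6 higher of the 32, and 4766 lower and 4937 higher of all genes. Same-numbered libraries correlated at -0.026 to 0.0079, which shows no strong shift in common. It cannot show whether they were handled in pairs. Members under 3 CPM had an SE of at least 0.205, which limits what could be detected for them.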

Other observations

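Of 38 other DEAD-box and DEAH-box genes tested, 13 fell and 8 rose, a share of 55.3% called. Of the 12 among the 32 genes, 2 fell and 4 rose, a share of 50%, beside 53.5% of all genes. The difference between these 2 sets was not tested. The largest changes lay outside the list. DDX60L rose by 3.01 on the log2 scale from 57.9 ± 2.97 to 469 ± 23.2 CPM and DDX60 rose by 3.81 from 10.1 ± 0.712 to 142 ± 7.39 CPM, both known as interferon-induced antiviral helicase genes. DHX58, a RIG-I-like receptor gene, rose by 5.68 from 0.242 ± 0.133 to 11.9 ± 0.540 CPM. Its wild-type libraries were at only 0.106, 0.371 and 0.250 CPM, and it passed the filter on low counts through its knockout libraries. The size of this rise is therefore uncertain. Among those that fell, DHX40 fell by 0.59, DDX50, the paralog of DDX21, fell by 0.51 and DDX6, a helicase of mRNA decay, fell by 0.50; these 3 were chosen after their values were seen. DDX21 had risen by 0.11.

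The neighbourhood of RTEL1, which includes the YTHDF1 locus, was described by counts only. Of 44 other genes tested within 1 Mb, 18 rose and 6 fell, beside 27.2% higher and 26.3% lower of all genes, and the median log2 fold change was 0.15. HELZ2, a helicase gene known to be induced by interferon, rose by 4.88 from 25.6 ± 0.263 to 756 ± 10.8 CPM, OGFR rose by 1.91 and FLJ16779 rose by 2.77. RTEL1 itself had a log2 fold change of 0.40 with a 95% interval of -0.35 to 1.16.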
